A study of Rattus norvegicus with 4 samples.

Results

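The glucocorticoid receptor gene Nr3c1 and 7 genes that serve or answer the receptor were followed in rat colon after mesenchymal stem cell transplantation (MSCT). The 8 genes are Nr3c1, Hsd11b1, Fkbp5, Tsc22d3, Klf9, Cebpd, Bhlhe41 and Tat. Rows were named by RefSeq accession through the gene table of GRCr8, the rat assembly, and a row had to hold a value on all 4 arrays. All 8 had 1 such row, among 6963 genes measured by name and 18350 measured rows. The genes were selected on the difference of their log2 values between the MSCT and control arrays, so these values are a description and no test is given for them.

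Glucocorticoids enter cells as the active steroid, corticosterone in the rat, and bind a receptor held ready in the cytoplasm by heat shock proteins and immunophilins. The bound receptor moves to the nucleus, where it raises some genes through response elements in DNA and lowers many inflammatory genes. In the gut, glucocorticoids restrain inflammation, drive salt absorption and are used to treat inflammatory bowel disease (IBD). Several of their target genes also follow the time of day.

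Colon RNA came from 4 male Sprague Dawley rats, of which 2 were control and 2 MSCT rats, and each had 1 NimbleGen array read in a single color. The MSCT rats received TNBS (2,4,6-trinitrobenzene sulfonic acid), which causes colitis, into the colon and then cultured mesenchymal stem cells labeled with green fluorescent protein through the tail vein. The control rats had no transplantation. They are called IBD rats in the study and normal rats in the sample descriptions, so whether they had received TNBS is not settled here, and the colitis and the transplantation cannot be told apart if they had not. The study gives more than one day for the chips, the labels give none, and neither gives the age of the rats or the time of day.

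Intensities were linear values per transcript, with array medians from 847.6 to 892.7, and are given as log2 values below. A difference is MSCT minus control on the log2 scale, with its standard error from limma, a linear model that shares the variance between rows. The standard errors thus mix the spread between 2 rats per group with a prior variance taken from all rows (0.059, with 2.46 degrees of freedom). This raises the error of genes with close replicates and lowers that of genes with distant ones. For Nr3c1 the error was 0.18, although the replicates had standard deviations of 0.07 (control) and 0.00 (MSCT). Having 2 rats per group limits the precision. The tissue label was met by its markers: 8 measured genes of colon epithelium gave a summed log2 intensity from 17.15 to 17.18 in the control group and from 17.26 to 17.32 in the MSCT group, and 5 of smooth muscle gave 17.11 to 17.39 and 17.24 to 17.28. Of the reference genes, Gapdh differed by -0.19, B2m by -0.17, Actb by 0.12 and Hprt1 by 0.44. In tissue RNA, fewer cells of a type and less RNA per cell cannot be told apart.

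The 8 genes did not move in 1 direction. Fkbp5 and Bhlhe41 were more than 6-fold higher in the MSCT group, Tsc22d3 was more than 2-fold lower, and Nr3c1 itself differed by little. The screen of the study took p under 0.05, unadjusted, with more than a 2-fold change. By limma, 3 of the 8 genes met it, where 4.63% of all measured rows did. Of the 3, 2 were higher and 1 was lower, against 2.12% and 2.51% of all rows. Control and MSCT arrays lay apart in 6 of the 8 genes, against 45.8% of all rows, with 3 genes higher (21.3% of rows) and 3 lower (24.5%). Because this contrast was used to choose the genes, nothing is read from these counts. In the default fit, none of the 8 passed an adjusted p of 0.05, nor did any row of the table (0 of 18350 by limma with Benjamini-Hochberg adjustment, although 2196 rows had an unadjusted p under 0.05).

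**Figure D1:**
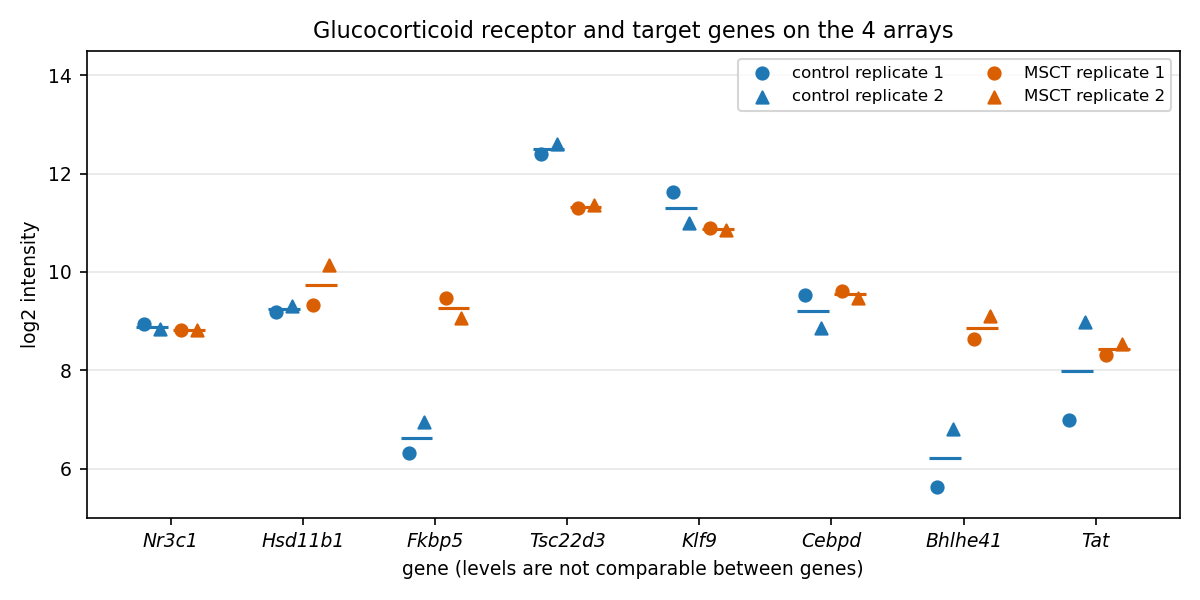
Log2 intensity (vertical axis) of the 8 genes (horizontal axis) on the 4 arrays; each point is 1 rat, blue for control and orange for MSCT, and the short lines are group means. The groups are far apart for Fkbp5 and Bhlhe41, with MSCT higher, and for Tsc22d3, with MSCT lower, while the control points of Tat lie 1.98 apart.

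Nr3c1 (NM_012576) encodes the glucocorticoid receptor. Its log2 intensity was 8.95 and 8.84 in the control rats and 8.83 and 8.82 in the MSCT rats (replicates 1 and 2). The groups did not overlap, but the nearest arrays of different groups were 0.01 apart. The difference was -0.07 (standard error 0.18, n = 2 per group), and 86% of all rows differed by at least as much in size. After quantile normalization it was -0.01. Nr3c1 was thus the gene with the smallest difference of the 8. Nr3c2 encodes the mineralocorticoid receptor, which also binds glucocorticoids and was measured by another row. It lay at 12.02 and 12.14 in the control group and at 11.65 and 11.66 in the MSCT group, and differed by -0.42 (standard error 0.18; limma adjusted p = 0.467).

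Hsd11b1 (NM_017080) encodes the enzyme that regenerates active glucocorticoid from its inactive form inside cells. Its log2 intensity was 9.18 and 9.31 in the control group and 9.32 and 10.15 in the MSCT group. Only MSCT replicate 2 stood away from the other 3 arrays. The difference was 0.49 (standard error 0.33), and it was 0.08 without MSCT replicate 2 and 0.90 without MSCT replicate 1. Hsd11b2, which encodes the enzyme of the opposite reaction and shields the mineralocorticoid receptor in colon epithelium, lay at 12.42 in both control rats and at 12.98 and 12.77 in the MSCT rats. Its difference was 0.46 (standard error 0.19; limma adjusted p = 0.46), so that both enzymes were higher by about the same amount, and neither met the screen.

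Fkbp5 (NM_001012174) encodes an immunophilin that sits on the receptor complex and lowers its affinity for the steroid, and the gene is itself induced by the receptor. Its log2 intensity was 6.31 and 6.95 in the control rats and 9.47 and 9.06 in the MSCT rats. In linear units these were 79.32 and 123.7 against 707.4 and 533.1. Every MSCT array was above every control array, by 2.11 to 3.16. The difference was 2.63 (standard error 0.31), or 6.2-fold, and 0.142% of all rows differed by at least as much in size. With each array left out in turn, it lay between 2.31 and 2.95. As for the other genes, this range is set by the gaps within the groups. The control values were dim, since the mean of Fkbp5 over the 4 arrays was at percentile 22.1 of all rows, and the lowest measured log2 value of the table was 4.99. Fkbp4, the other large immunophilin of the complex, was not analysed here.

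Tsc22d3 (NM_031345) encodes the glucocorticoid-induced leucine zipper protein (GILZ), an inhibitor of inflammatory transcription factors. Its log2 intensity was 12.40 and 12.61 in the control rats and 11.30 and 11.36 in the MSCT rats. Both pairs of replicates were close, with gaps of 0.21 and 0.06. Every MSCT array was below every control array, by -1.31 to -1.04. The difference was -1.17 (standard error 0.19), or 2.26-fold, and it lay between -1.28 and -1.07 when single arrays were left out. The mean of Tsc22d3 was at percentile 84.5 of all rows. Thus, 2 genes that are commonly used as readouts of the receptor, Fkbp5 and Tsc22d3, differed in opposite directions.

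Klf9, Cebpd and Bhlhe41 encode transcription factors that the receptor induces. Klf9 (NM_057211), a Krüppel-like factor, lay at 11.62 and 10.99 in the control group and at 10.89 and 10.85 in the MSCT group. Control replicate 2 was nearer to the MSCT arrays than to control replicate 1. The difference was -0.43 (standard error 0.28), and -0.12 without control replicate 1. Cebpd (NM_013154), a CCAAT/enhancer-binding protein of the acute phase, lay at 9.53 and 8.87 in the control group and at 9.62 and 9.48 in the MSCT group. The groups overlapped, and the difference of 0.35 (standard error 0.29) was 0.02 without control replicate 2. Its relative Cebpb had control arrays at 8.0 and 10.14 and MSCT arrays at 9.58 and 9.71 (limma adjusted p = 0.775).

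Bhlhe41 (NM_133303) encodes DEC2, a repressor that binds E-boxes and also acts in the circadian clock. Its log2 intensity was 5.63 and 6.81 in the control rats and 8.63 and 9.10 in the MSCT rats. In linear units these were 49.62 and 112.3 against 396.1 and 548.9. The groups did not overlap, although the control arrays were 1.18 apart, a gap that 5.69% of all rows reached. The difference was 2.64 (standard error 0.46), or 6.25-fold. It was 2.05 without control replicate 1 and 3.23 without control replicate 2. Its mean was dim, at percentile 15.3 of all rows, and Bhlhe41 met the screen by limma but not by the methods' t-test. Its close relative Bhlhe40, which encodes DEC1, was measured at 12.31 and 12.63 in the control group and at 12.67 and 12.80 in the MSCT group, which differed by 0.26 (standard error 0.22; limma adjusted p = 0.652). The difference of the differences was not tested.

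Tat (NM_012668) encodes tyrosine aminotransferase, an enzyme of the liver that is a classical glucocorticoid-induced gene. Its log2 intensity was 7.0 and 8.98 in the control rats and 8.31 and 8.54 in the MSCT rats. The MSCT arrays lay between the control arrays, which were 1.98 apart, and 1.17% of all rows had such a gap. The difference was 0.44 (standard error 0.69). It was -0.55 without control replicate 1 and 1.43 without control replicate 2, so its direction rested on which control rat was used. Of 8 measured marker genes of hepatocytes, 5 also had their lowest value on control replicate 1. Their summed log2 intensity was 13.10 and 13.46 in the control rats and 13.28 and 13.50 in the MSCT rats. Alb, the gene of serum albumin, was not among the 5, at 11.58 and 11.36 in the control rats and 11.13 and 11.41 in the MSCT rats. Control replicate 1 was also lowest in 4 of 8 colon epithelium markers. It was lowest in 1 of 5 smooth muscle, 1 of 6 leukocyte and 1 of 5 adipocyte markers. The share over all rows was not computed, so nothing is read from these counts. The part of the hepatocyte genes in the values of Tat was not tested. In the whole table, control arrays were more than 1 apart in 1602 rows, and 62.2% of these were lower on control replicate 1.

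**Figure D2:**
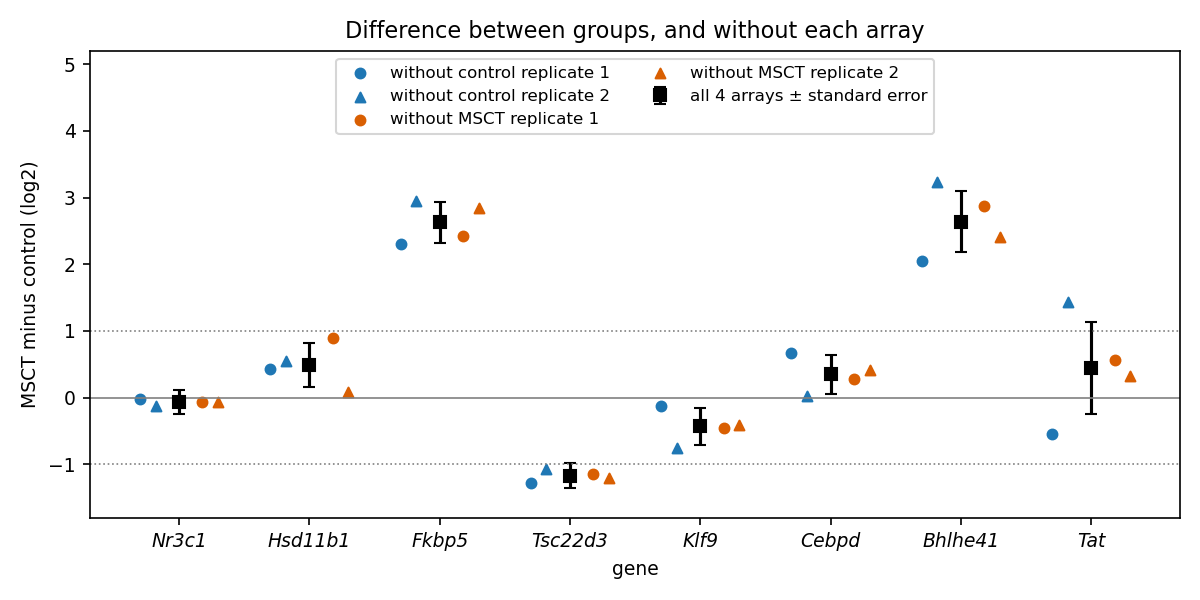
MSCT minus control on the log2 scale (vertical axis) for the 8 genes (horizontal axis); black squares are all 4 arrays with the standard error, colored points leave out 1 array, and dotted lines mark 2-fold. Without single arrays, Fkbp5 and Bhlhe41 lie above 2, Tsc22d3 lies below -1, and Tat runs from -0.55 to 1.43. With 2 arrays per group, these points are fixed by the gap within each group and say nothing of stability.

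The control arrays were farther apart than the MSCT arrays in 7 of the 8 genes, all but Hsd11b1. Over all rows, the median gap was 0.31 between the control arrays and 0.24 between the MSCT arrays. Gaps of the control arrays over 0.6 were found in Fkbp5 (0.64), Klf9 (0.63), Cebpd (0.65), Bhlhe41 (1.18) and Tat (1.98). For Fkbp5 and Bhlhe41 the groups were farther apart than this gap, and for Klf9, Cebpd and Tat they were not. By the smallest difference between any MSCT and any control array, the order was Fkbp5 (2.11), Bhlhe41 (1.82) and Tsc22d3 (-1.04), and in the other 5 genes this distance was at most 0.09 in size or the groups overlapped.

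The promoters of the 3 genes past the screen are shown because these genes differed most and in opposite directions. The sequences run from 250 bases before to 50 bases after a transcription start, are those of RefSeq in the build GRCr8 and are given 5′ to 3′ on the strand of the gene. Capitals mark GC boxes (GGGCGG or its reverse complement CCGCCC, a site of Krüppel-like factors such as Klf9) and the E-box CACGTG, the site of Bhlhe41. The Fkbp5 window is chr20:6543506-6543805 and the Bhlhe41 window chr4:180569306-180569605, both on the minus strand. Tsc22d3 has 3 listed starts, with windows chrX:109066340-109066639, chrX:109065381-109065680 and chrX:109009985-109010284 on the minus strand, and which start gave the measured transcript was not determined.
Fkbp5: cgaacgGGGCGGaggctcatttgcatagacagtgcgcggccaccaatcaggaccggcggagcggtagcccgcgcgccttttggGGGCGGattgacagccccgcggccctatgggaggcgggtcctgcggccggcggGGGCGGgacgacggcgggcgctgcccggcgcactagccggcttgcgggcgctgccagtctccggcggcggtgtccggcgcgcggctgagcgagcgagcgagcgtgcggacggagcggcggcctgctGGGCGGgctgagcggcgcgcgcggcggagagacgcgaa
Bhlhe41: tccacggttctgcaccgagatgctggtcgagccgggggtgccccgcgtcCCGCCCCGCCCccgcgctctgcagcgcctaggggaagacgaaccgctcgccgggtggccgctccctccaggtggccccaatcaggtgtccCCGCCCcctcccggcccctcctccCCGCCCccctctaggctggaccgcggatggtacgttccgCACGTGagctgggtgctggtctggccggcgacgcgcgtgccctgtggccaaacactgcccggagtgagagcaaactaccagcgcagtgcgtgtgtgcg
Tsc22d3, upstream start: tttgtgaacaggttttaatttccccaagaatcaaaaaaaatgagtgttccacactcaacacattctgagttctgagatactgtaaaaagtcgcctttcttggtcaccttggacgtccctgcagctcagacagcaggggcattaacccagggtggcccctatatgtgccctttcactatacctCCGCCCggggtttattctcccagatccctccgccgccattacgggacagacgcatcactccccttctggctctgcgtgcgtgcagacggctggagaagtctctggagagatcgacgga
Tsc22d3, middle start: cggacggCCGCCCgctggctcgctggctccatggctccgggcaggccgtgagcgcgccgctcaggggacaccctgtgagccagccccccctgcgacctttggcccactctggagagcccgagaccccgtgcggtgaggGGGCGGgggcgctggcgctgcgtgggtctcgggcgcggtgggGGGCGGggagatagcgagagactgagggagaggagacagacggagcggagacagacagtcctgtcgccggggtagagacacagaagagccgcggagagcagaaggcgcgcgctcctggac
Tsc22d3, downstream start: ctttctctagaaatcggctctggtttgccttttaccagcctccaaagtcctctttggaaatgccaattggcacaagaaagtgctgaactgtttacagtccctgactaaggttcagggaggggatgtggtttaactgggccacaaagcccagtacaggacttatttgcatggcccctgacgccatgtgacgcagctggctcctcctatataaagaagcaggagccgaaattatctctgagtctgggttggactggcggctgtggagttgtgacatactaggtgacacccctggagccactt

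RefSeq windows were matched for 6 of the 8 genes (9 windows), all but Hsd11b1 and Cebpd. Both strands were searched. The glucocorticoid response element was written as GNACA and TGTNC with 3 bases of any kind between them, and 0 of the 9 windows held it, where 0.439% of the 33469 windows of all genes did. Its single repeat AGAACA was in 0 of the 9 and in 20.7% of all windows. The E-box was in the window of Bhlhe41, at position -48 from the start, and in 6.42% of all windows. GC boxes were in 6 of the 9 windows, those of Nr3c1, Fkbp5, Tsc22d3 and Bhlhe41, and in 33.1% of all windows. TTGCNNAA, a site of CCAAT/enhancer-binding proteins such as Cebpd, was in 0 of the 9 and in 10.6% of all windows. A match is a sequence feature and not a measured binding site. No match says only that these letters are not in this window. GC boxes overlap each other in the Bhlhe41 window.

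Genes with the most similar pattern were sought by the root mean square distance of centred log2 values over the 4 arrays, among 6962 other genes measured by name. For Fkbp5 they were Hsd3b2 (distance 0.15), Zg16 (0.19) and Nr1d1 (0.22). Hsd3b2, which encodes a hydroxysteroid dehydrogenase, lay at 8.33 and 9.24 in the control rats and at 11.82 and 11.45 in the MSCT rats. For Bhlhe41 the nearest were Ugt8 (0.15), Zg16 (0.25) and Nr1d1 (0.30), so Zg16, a gene of goblet cells, and the clock gene Nr1d1 stood near both. For Tsc22d3 they were Cry1 (0.02), Gal (0.05) and Steap3 (0.05), and Cry1, a clock gene, lay at 11.25 and 11.41 against 10.14 and 10.15. For Tat they were Slc27a5 (0.05), Agt (0.07) and Crp (0.09), which share its low value on control replicate 1. The nearest genes were Ciao2a, Ppt2 and H2az1 for Nr3c1, Dnase2, Nell2 and Fcgr2a for Hsd11b1, Katna1, Rhbdd3 and Gimap5 for Klf9, and Bet1l, Slc1a6 and Ptrh2 for Cebpd, all within 0.05. With 4 arrays, many genes fit a pattern closely.

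**Figure D3:**
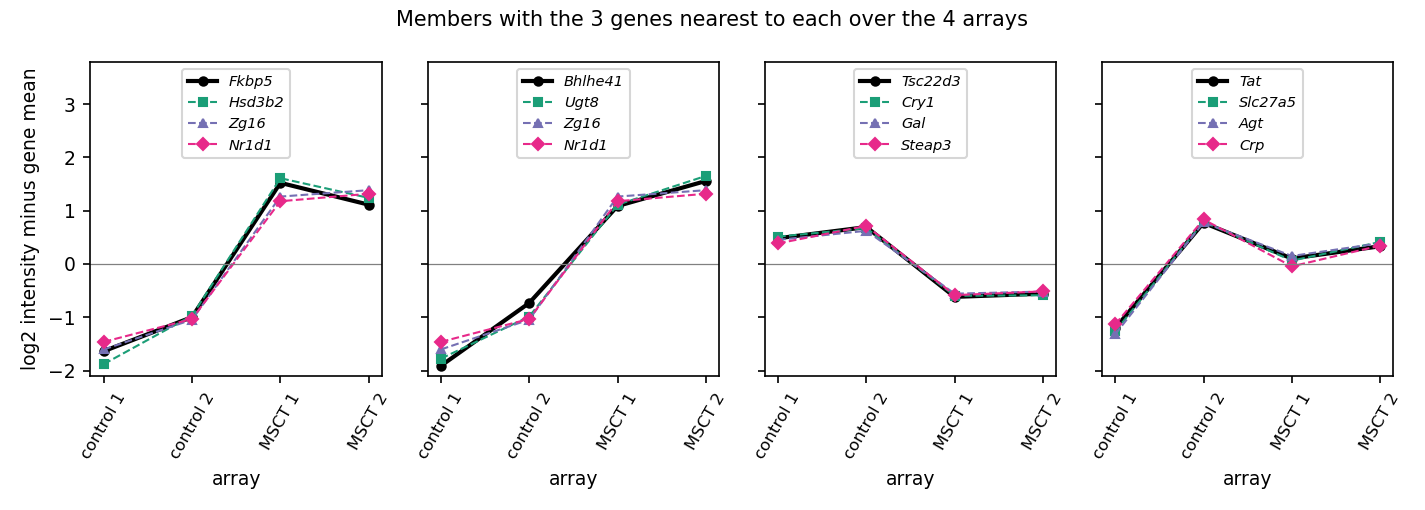
Log2 intensity minus the mean of the gene (vertical axis) on the 4 arrays (horizontal axis) for Fkbp5, Bhlhe41, Tsc22d3 and Tat (black) and the 3 genes nearest to each (colored dashes). Fkbp5 and Bhlhe41 are high on both MSCT arrays, Tsc22d3 is low on both, and Tat is low on control replicate 1 alone.

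Genes that make up or regulate the receptor complex were measured for 12 of 26 listed genes. Their median difference was 0.10, against -0.02 over all rows and 0.05 over genes measured by name, with 8 genes higher and 4 lower. By limma, 1 gene met the screen (8.33%, against 4.63% of all rows). It was Dnaja1, a co-chaperone of the HSP70 family that helps load the receptor, at 11.68 and 11.81 in the control rats and 12.83 and 12.72 in the MSCT rats. The difference was 1.03 (standard error 0.19; limma adjusted p = 0.27), and it was 0.97 without control replicate 1 and 0.98 without MSCT replicate 1, below 2-fold. The chaperone Hsp90aa1 differed by 0.43 and Hsp90ab1 by 0.37, and Stip1, which passes the receptor from HSP70 to HSP90, differed by 0.55 (limma adjusted p = 0.391). These 3 genes were named after their values were seen. The other chaperone and co-chaperone genes of the list differed less, Hspa8 by 0.29, Ppid by 0.15, Hspa4 by 0.05 and Stub1 by -0.07.

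Genes of steroid supply, which make, carry or clear glucocorticoids or control the stress axis, were measured for 13 of 21 listed genes. Of the measured genes, 10 were higher and 3 lower, where 48% of all rows were higher. The median difference of the list was 0.44, against 0.05 over genes measured by name. It was 0.12 without control replicate 1, 0.23 without MSCT replicate 1 and 0.07 over the 5 genes left without the dimmer 50% of rows. By limma, 1 gene met the screen (7.69%, against 4.63% of all rows). Crhr1, a receptor of corticotropin-releasing hormone, lay at 6.92 and 6.76 in the control rats and at 8.02 and 7.77 in the MSCT rats. The difference was 1.06 (standard error 0.21; limma adjusted p = 0.288), from dim values at percentile 12.2. It was 0.97 without control replicate 2 and 0.93 without MSCT replicate 1, below 2-fold, and without MSCT replicate 2 the list had 4 genes past the screen, when 1503 of all rows in place of 850 met it. Cyp11a1, Cyp11b1, Cyp21a1, Abcb1b and Crh held no value on any array, and the first 3 encode enzymes of corticosteroid synthesis.

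Other glucocorticoid-induced genes were measured for 35 of 43 listed genes and were split between both directions, with 19 higher and 16 lower and a median difference of 0.03 (-0.112 without the dimmer 50% of rows). By limma, 5 met the screen (14.3%, against 4.63% of all rows), 4 higher (2.12% of all rows) and 1 lower (2.51%). By the default fit, none had an adjusted p under 0.05, 4 did with an intensity-dependent and robust variance, and 2 did without the dimmer 50% of rows. The list was written with the values of Per1, Dusp1 and Lcn2 already known, so its count is not independent evidence. Lcn2, an iron-binding defense protein, lay at 7.50 and 7.46 in the control rats and 9.65 and 9.17 in the MSCT rats, a difference of 1.93 (standard error 0.24; limma adjusted p = 0.257). Per1, a clock gene with a response element for the receptor, differed by 1.33 (standard error 0.22; limma adjusted p = 0.26), from 11.40 and 11.11 to 12.70 and 12.46. Pdk4, a kinase that limits glucose oxidation, differed by 1.19 (standard error 0.21), and these 3 genes met the screen without any single array.

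Angptl4, an inhibitor of lipoprotein lipase, lay at 5.91 and 6.70 in the control rats and at 7.38 and 7.90 in the MSCT rats, and differed by 1.33 (standard error 0.37; limma adjusted p = 0.338). It missed the screen without control replicate 1, without MSCT replicate 2 and by the methods' t-test. The gene of the list that was lower past the screen was Dusp1, a phosphatase that switches off MAP kinases and mediates part of the anti-inflammatory action of glucocorticoids. It lay at 13.55 and 13.19 in the control rats and at 12.34 and 11.74 in the MSCT rats, a difference of -1.33 (standard error 0.30; limma adjusted p = 0.299), and missed the screen by the methods' t-test. Lower with an unadjusted p under 0.05, though less than 2-fold, were Hif3a (-0.99), Scnn1a (-0.73), Sgk1 (-0.72) and Mt1 (-0.72), named after their values were seen. Scnn1a and Sgk1 encode a subunit of the epithelial sodium channel and the kinase that keeps the channel at the cell surface, and both lay with Tsc22d3 and Dusp1 among the genes lower in the MSCT group. Counted this way, 5 genes were lower and 4 higher, where 7.17% and 4.8% of all rows were. Without the dimmer 50% of rows, 2 genes of the list met the screen, Per1 and Dusp1, while Lcn2, Pdk4 and Angptl4 were then not tested.

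Genes that glucocorticoids commonly repress were measured for 10 of 26 listed genes. Another 14, among them Il1b, Il6, Tnf, Ifng and Nos2, held no value on any array. The median difference was 0.56, against 0.05 over genes measured by name. Of the 10 measured genes of the list, 8 were higher and 2 lower, where 48% of all rows were higher. Most of these genes were dim, and without the dimmer 25% of rows 3 were left, with a median of 0.903. By limma, 1 gene met the screen (10%, against 4.63% of all rows). Pla2g2a, a secreted phospholipase of host defense, lay at 11.10 and 11.23 in the control rats and at 12.58 and 12.44 in the MSCT rats, a difference of 1.34 (standard error 0.19; limma adjusted p = 0.26). It met the screen without any single array. Icam1, an adhesion molecule of leukocytes and endothelium, differed by 0.90 and was the other gene of the list with an unadjusted p under 0.05 (limma adjusted p = 0.291). Of 6 measured leukocyte markers, 2 met the screen, where 4.63% of all rows did. These were the macrophage genes Cd68 (1.29) and Csf1r (1.00), while Cd14, also of monocytes and macrophages, differed by -0.04, Cd8a by 0.01, Cd3g by 0.13 and Cd4 by 0.37. The summed log2 intensity of the 6 was 13.58 and 13.74 in the control rats and 13.81 and 14.03 in the MSCT rats. Their part in the values of Pla2g2a and Icam1 was not tested.

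**Figure D4:**
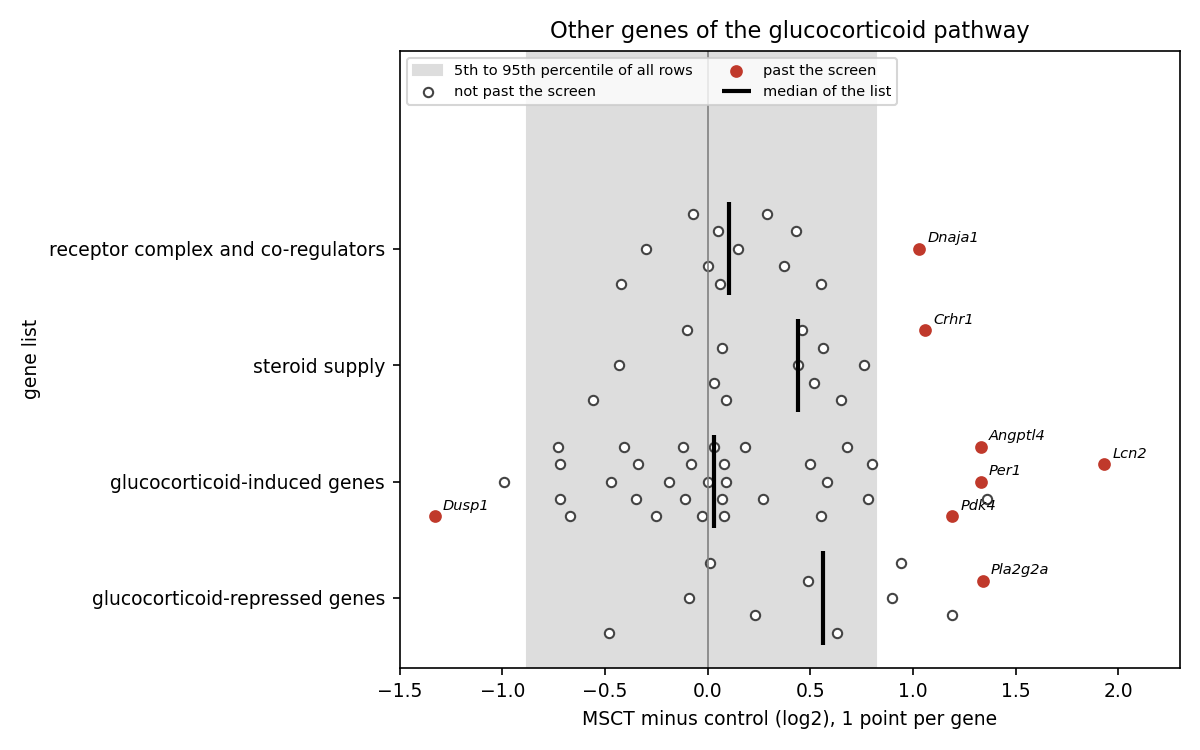
MSCT minus control on the log2 scale (horizontal axis) for each measured gene of the 4 pathway lists (vertical axis); red points met the screen, black bars are list medians and the grey band spans the 5th to 95th percentile of all rows (-0.88 to 0.82). The glucocorticoid-induced genes lie on both sides of 0, with Dusp1 at -1.33 and Lcn2 at 1.93.

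Members of the circadian clock, to which Per1 and Bhlhe41 also belong, differed between the same arrays. Of 12 measured clock genes, 6 met the screen by limma, where 4.63% of all rows did. Like the other lists, this one was chosen with earlier results of these data known, so its count is not independent evidence. Higher were Nr1d1 (2.50), Dbp (1.87), Nr1d2 (1.52) and Per1 (1.33), and lower were Bmal1 (-1.85) and Cry1 (-1.18). The time of day at which each rat was killed is not given, and the part of the clock in the values of Fkbp5, Bhlhe41 and Tsc22d3 was not tested. Adipocyte markers, listed because Hsd11b1 is active in fat, gave a summed log2 intensity of 12.64 and 12.14 in the control rats and 12.66 and 12.55 in the MSCT rats over 5 measured genes, and Adipoq and Lep held no value.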

How the data were processed

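Colon RNA of 2 control and 2 MSCT rats was measured on one-color NimbleGen arrays (Cy3). The authors used a GenePix scanner and NimbleScan, and deposited 1 linear intensity per RefSeq transcript and array. Per the labels, RMA was among the tools, and its settings and any background correction are not given in the sources used here. Of 26420 rows, 18350 had values for all 4 arrays, and 8070 were blank throughout, by a rule that is not stated. Log2 values were used as they stood, without a filter.

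MSCT was compared with control over all rows by limma 3.58.1 (R 4.3.3; lmFit, eBayes, defaults), with Benjamini-Hochberg adjustment, and was tested on simulated data. With 2 arrays per group, the smallest two-sided p of an exact permutation test is 0.333. Rows were named by unversioned accession through the RefSeq gene table of GRCr8 (7062 of the measured rows, 38.5%), and the brightest row by mean stood for a gene. The members and lists were chosen with earlier results of these data known. Named were the members, list genes past the screen (at most 5 per direction), the closest relatives, the reference genes and the 3 nearest genes. Fkbp4, Tsc22d1 and Klf13 were not analysed here, and 1 gene left out of the induced list is not reported here. Alternatives were other scalings, filters, variance models and tests, linear means, the dimmer row of a gene, the replicate block and leaving out each array. Figures were drawn with Python 3.11.15 and matplotlib 3.10.9.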

Additional observations from a re-analysis of the deposited data

How the results depend on the processing

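Of 278 recomputed values, 246 were labeled the same, 23 moved, 9 lost the screen in the same direction and no called value reversed. The same meant a difference or median within the spread between replicates, a count within 1.5 times, or a gene still past the screen. Part of the 246 was fixed in advance. A filter leaves the difference of a kept gene unchanged, and each of the 8 genes had only 1 row, so its dimmer row was the same row. Under other scalings and linear means, the differences of the 8 genes moved by less than the spread between replicates, except Nr3c1 after quantile normalization (-0.01). With 2 arrays per group, leaving 1 out cannot move a difference beyond the gap of its group, so these values, although counted above, say nothing of stability, and Tat changed sign without control replicate 1. When the dimmest 25% or 50% of rows were left out, 1 of the 8 genes met the screen, because Fkbp5 and Bhlhe41 were then not tested, and without control replicate 2 Tat met it too (4 genes). With either filter, 0 genes of steroid supply met the screen, because Crhr1 was then not tested. With the intensity-dependent and robust variance (both set together), Crhr1 was tested and missed the screen, which left 0 genes. The median of the repressed genes was 0.903 (3 genes) without the dimmest 25% of rows and 1.342 (1 gene) without the dimmest 50%. Over all rows, 251 met the screen without the lower 50%, where 2 of the 21 glucocorticoid-induced genes still tested met it, with a list median of -0.112. By the methods' t-test (one-way analysis of variance of both groups), 388 rows met it, 191 higher and 197 lower. These are the counts that the study reports. By this test, 3 glucocorticoid-induced genes met the screen. Without each array, the screen held 934 to 1565 of all rows (1565 without control replicate 2 and 1503 without MSCT replicate 2), 0 to 1 genes of the receptor complex, 0 to 4 of steroid supply, 4 to 12 of the induced and 1 to 2 of the repressed genes. The replicate numbers of the labels are not stated to pair the rats. Deviations of same-numbered arrays correlated across rows at r = 0.234. With the replicate number as a block, 971 rows met the screen, as did 2 of the repressed genes (Pla2g2a and Ccl5), and no other list's count moved by over 1.5 times. Adjusted p-values under 0.05 were absent from the default limma fit (smallest 0.257), but 247 rows had one without the lower 50% of rows and 387 with the intensity-dependent and robust variance. Other causes were not tested. Dim values limit Fkbp5, Bhlhe41, Crhr1, Angptl4 and most of the glucocorticoid-repressed genes.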
